A study of Mus musculus with 6 samples.

Results

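The 7 genes described here encode a B cell attractant, a pair of B cell survival ligands and the receptors of all 3. They are *Cxcl13*, *Cxcr5*, *Tnfsf13*, *Tnfsf13b*, *Tnfrsf13b*, *Tnfrsf13c* and *Tnfrsf17*, taken by symbol from a table of 54532 genes, and each symbol had a single row. The set was selected on measured values of this same comparison, among them the low *Cxcl13* FPKM in KO, so the differences of the 7 genes between genotypes are given as a description without p-values. RNA came from primary macrophages of wild-type mice (WT, METRNL+/+) and of mice labelled METRNL KO (METRNL-/-), whose label says that they lack *Metrnl*, the gene for the secreted hormone meteorin-like. After culture, the cells of both groups had been kept with the fungus *Candida albicans* for 6 h, so the design holds no cells without the fungus. There were 3 libraries per genotype. The labels give neither the organ that the macrophages came from, nor the strain, age or sex of the mice, nor how the gene was inactivated, nor whether replicates were separate animals, so the spread between libraries may be technical.

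CXCL13 is a chemokine made by stromal cells of lymphoid follicles and by resident macrophages of the body cavities, and it draws in B cells that carry its receptor CXCR5. BAFF (*Tnfsf13b*) and APRIL (*Tnfsf13*) are TNF family ligands that myeloid cells and stroma release after cleavage by furin-type proteases, and they keep B cells and plasma cells alive. BAFF binds the BAFF receptor (*Tnfrsf13c*), TACI (*Tnfrsf13b*) and BCMA (*Tnfrsf17*), while APRIL binds TACI and BCMA. The receptors signal through TRAF adaptors, and the BAFF receptor mainly through NIK (*Map3k14*) and the non-canonical NF-kB pathway.

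The stretches of DNA before the start sites of *Cxcl13*, *Tnfrsf13b* and *Tnfrsf13c* are shown because these 3 genes were all lower in KO. The fold was smaller for *Tnfrsf13b* than for *Cxcl13* and *Tnfrsf13c*. RefSeq windows on GRCm38.p6 were found for 6 of the 7 genes, all but *Cxcr5*, which was also lower in KO. The 250 bases before the start are printed 5′ to 3′ on the gene's strand. Capitals mark matches, on either strand, to any of 6 motifs. The TATA box was searched as TATAAA. The E-box was searched as CAGCTG and the octamer of immunoglobulin promoters as ATGCAAAT. The motif of the myeloid and B cell factor PU.1 was searched as GAGGAAGT. The NF-kB motif was GGG followed by CC after 5 bases of any kind, and the interferon-stimulated response element was TTTC repeated after 2 bases of any kind.
Cxcl13 (chr5:95956689-95956938, plus strand): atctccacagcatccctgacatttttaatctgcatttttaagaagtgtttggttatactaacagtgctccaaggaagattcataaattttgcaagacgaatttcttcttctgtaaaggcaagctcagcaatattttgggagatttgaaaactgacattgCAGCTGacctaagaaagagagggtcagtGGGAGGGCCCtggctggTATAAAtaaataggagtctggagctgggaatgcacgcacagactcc
Tnfrsf13b (chr11:61126505-61126754, plus strand): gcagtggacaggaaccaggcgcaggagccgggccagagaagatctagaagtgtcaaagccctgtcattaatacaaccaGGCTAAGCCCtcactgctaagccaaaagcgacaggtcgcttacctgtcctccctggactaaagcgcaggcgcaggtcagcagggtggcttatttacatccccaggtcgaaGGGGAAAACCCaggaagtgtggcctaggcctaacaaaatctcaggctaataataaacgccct
Tnfrsf13c (chr15:82224381-82224630, minus strand): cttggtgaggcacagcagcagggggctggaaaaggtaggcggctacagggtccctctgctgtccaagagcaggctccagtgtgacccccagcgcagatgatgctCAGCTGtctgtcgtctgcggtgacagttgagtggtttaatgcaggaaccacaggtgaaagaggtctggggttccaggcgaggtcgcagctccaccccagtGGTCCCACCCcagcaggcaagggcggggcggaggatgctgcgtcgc
The *Cxcl13* window held a TATA box from 46 to 41 bases before the start, an NF-kB pattern from 63 to 54 and an E-box from 91 to 86. The *Tnfrsf13c* window held an E-box from 146 to 141 and an NF-kB pattern from 46 to 37, and the *Tnfrsf13b* window held 3 NF-kB matches, of which 2 overlap. Of 32851 windows of the same length, 12.4% held the TATA box, 45.8% the NF-kB pattern, 13.0% the E-box, 1.60% the octamer, 2.44% the PU.1 motif and 2.98% the interferon motif. The octamer, PU.1 and interferon letters were not in these 3 windows. A match describes letters and is not evidence of binding.

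The attractant *Cxcl13* (ENSMUSG00000023078, chromosome 5, 95956951 to 95961068, plus strand, protein coding) was the most abundant of the 7 genes in WT. Its level was 48.1, 64.0 and 61.2 FPKM (the deposited unit, fragments per gene length and per sequencing depth) in WT replicates 1 to 3. In KO replicates 1 to 3 it was 1.29, 2.20 and 1.51 FPKM. Every KO library lay far below every WT library. The WT mean was 57.8 ± 8.50 FPKM and the KO mean 1.67 ± 0.477 FPKM (SD, n = 3 each), a 34.6-fold lower level, and 33.7-fold without both replicate 1 libraries. The KO values rested on 19, 40 and 26 reads against 887, 867 and 881 reads in WT. By level, *Cxcl13* ranked 830th, 659th and 712th of all genes in the WT libraries and 8679th, 7278th and 8264th in the KO libraries. No other annotated gene overlaps it in GENCODE M21.

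Its receptor gene *Cxcr5* (ENSMUSG00000047880, chromosome 9, 44511787 to 44561877, minus strand, protein coding), which marks follicular B cells and follicular helper T cells, was lower in KO as well. The levels were 13.3, 22.2 and 16.9 FPKM in WT and 0.798, 0.608 and 0.921 FPKM in KO, with no overlap. The means were 17.5 ± 4.46 and 0.776 ± 0.157 FPKM (SD, n = 3 each), a 22.5-fold lower level in KO. The gene shares 110 bases at its 3′ end with *Bcl9l* on the opposite strand, and the sources used here do not say whether counting used strand. The level of *Bcl9l* was 1.19 to 1.52 FPKM in the WT libraries against 0.313 to 0.412 FPKM in the KO libraries.

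**Figure D1:**
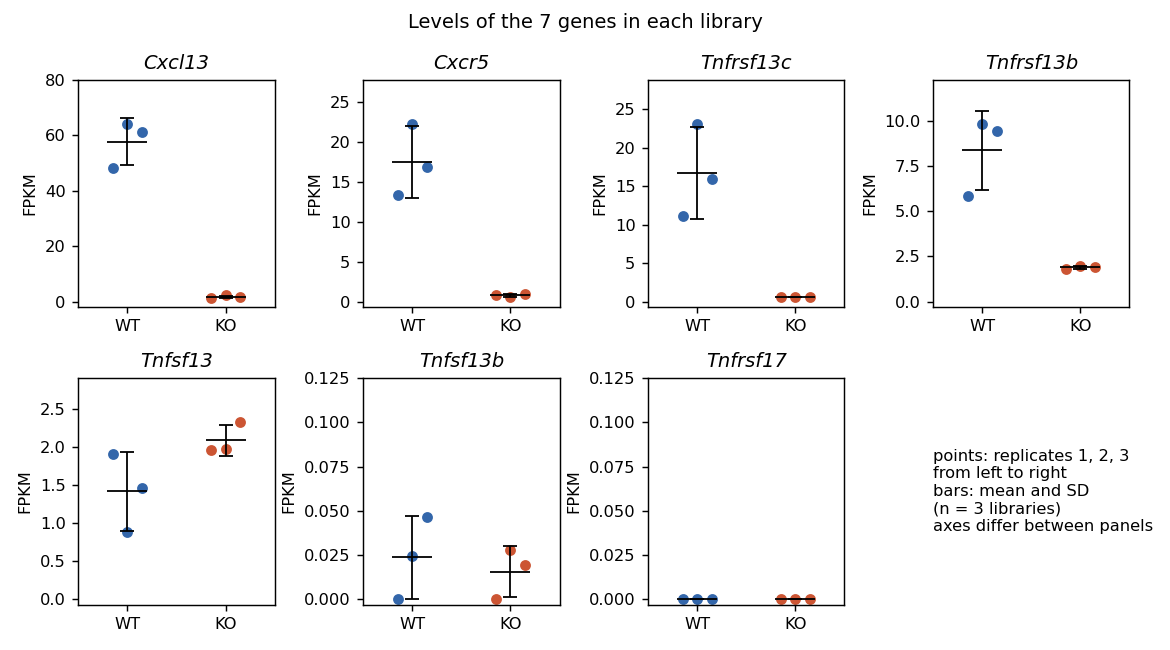
FPKM of the 7 genes in each library, 1 panel per gene with its own axis, points for replicates 1 to 3 and bars for mean and SD (n = 3). *Cxcl13*, *Cxcr5*, *Tnfrsf13c* and *Tnfrsf13b* were lower in every KO library than in every WT library, while *Tnfsf13b* stayed below 0.05 FPKM and *Tnfrsf17* was at 0.

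The gene of the BAFF receptor, *Tnfrsf13c* (ENSMUSG00000068105, chromosome 15, 82221743 to 82224369, minus strand, protein coding), is the survival receptor of mature B cells. Its level was 11.1, 23.1 and 16.0 FPKM in WT replicates 1 to 3. The KO libraries gave 0.534, 0.557 and 0.554 FPKM. The KO libraries were close together and far below the WT libraries, among which replicate 2 was highest and replicate 1 lowest. The means were 16.7 ± 5.99 and 0.548 ± 0.0122 FPKM (SD, n = 3 each), a 30.5-fold lower level in KO and a 35.1-fold lower level without both replicate 1 libraries. The KO values rested on 14, 18 and 17 reads.

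TACI, encoded by *Tnfrsf13b* (ENSMUSG00000010142, chromosome 11, 61126755 to 61149372, plus strand, protein coding), binds both ligands and is carried by marginal zone and B-1 cells and by some macrophages. Its level was 5.85, 9.79 and 9.41 FPKM in WT and 1.82, 1.94 and 1.88 FPKM in KO. The groups did not overlap, but the KO libraries kept 66, 87 and 80 reads. The means were 8.35 ± 2.17 and 1.88 ± 0.0622 FPKM (SD, n = 3 each), a 4.44-fold lower level in KO, and 5.02-fold without both replicate 1 libraries. The receptors therefore stood in another proportion to each other in the 2 groups. *Tnfrsf13b* was at 0.513 ± 0.0831 of the *Tnfrsf13c* level in WT and at 3.43 ± 0.0515 of it in KO (ratio of FPKM, SD, n = 3 each). The ratio lay between 0.425 and 0.590 in the WT libraries and between 3.40 and 3.49 in the KO libraries. *Cxcr5* against *Tnfrsf13c* gave 1.07 ± 0.117 in WT and 1.42 ± 0.293 in KO, with overlapping libraries (0.962 to 1.19 and 1.09 to 1.66).

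BCMA, the plasma cell receptor encoded by *Tnfrsf17* (ENSMUSG00000022496, chromosome 16, 11313812 to 11320074, plus strand, protein coding), had 0 reads in all 6 libraries. A count of 0 allows up to 3 reads, which over all libraries is 0.0439 FPKM. This floor covers counting error only.

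The ligand genes of these receptors were low in both groups. *Tnfsf13b*, the BAFF gene (ENSMUSG00000031497, chromosome 8, 10006467 to 10039072, plus strand, protein coding), had 0, 2 and 4 reads in the WT libraries and 0, 3 and 2 reads in the KO libraries. The levels were 0, 0.0247 and 0.0465 FPKM against 0, 0.0277 and 0.0194 FPKM. The KO to WT ratio of the summed reads, scaled for depth, was 0.771 with an exact 95% counting interval of 0.186 to 3.03, so a difference was not detectable at this depth. BAFF, which names this gene set, thus had almost no counted reads in either group, and whether the counting or the annotation used bears on this was not tested.

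*Tnfsf13*, the APRIL gene (ENSMUSG00000089669, chromosome 11, 69682846 to 69685784, minus strand, protein coding), was at 1.90, 0.882 and 1.46 FPKM in WT and at 1.96, 1.97 and 2.32 FPKM in KO. WT replicate 1 nearly reached the KO libraries. The means were 1.42 ± 0.513 and 2.08 ± 0.207 FPKM (SD, n = 3 each), 1.47-fold higher in KO and 1.83-fold higher without both replicate 1 libraries, from 17 to 57 reads per library. The whole gene lies inside *Tnfsfm13*, an annotated gene that joins *Tnfsf12* and *Tnfsf13* on the same strand, and inside *Tnfsf13os* on the opposite strand. Reads may be divided between them, so the level of *Tnfsf13* is uncertain. *Tnfsfm13* stood at 1.79, 0.760 and 1.75 FPKM in WT against 1.29, 2.64 and 3.22 FPKM in KO, and *Tnfsf13os* at 0.648 to 1.41 and 1.08 to 1.89 FPKM, both with overlapping groups.

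In WT the order of levels per gene length was *Cxcl13*, *Cxcr5*, *Tnfrsf13c*, *Tnfrsf13b*, *Tnfsf13*, *Tnfsf13b* and *Tnfrsf17*. The libraries of *Cxcr5* and *Tnfrsf13c* overlapped, while the other neighbours down to *Tnfsf13b* did not overlap. In KO the order began with *Tnfsf13*, followed by *Tnfrsf13b* (1.82 to 1.94 FPKM), *Cxcl13* (1.29 to 2.20 FPKM), *Cxcr5* and *Tnfrsf13c*. The KO libraries of *Cxcl13* overlapped those of *Tnfrsf13b* and of *Tnfsf13*. In both groups the APRIL gene stood above the BAFF gene in every library.

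On the log2(FPKM + 1) scale of the fit across all genes, which understates the differences of low genes, the KO minus WT difference was -4.47 ± 0.16 (SE; 95% interval -4.85 to -4.08) for *Cxcl13*. It was -3.46 ± 0.23 (-4.02 to -2.90) for *Tnfrsf13c*, -3.35 ± 0.18 (-3.79 to -2.92) for *Cxcr5* and -1.67 ± 0.18 (-2.10 to -1.24) for *Tnfrsf13b*. For *Tnfsf13* it was 0.37 ± 0.17, and the interval from -0.03 to 0.77 held 0. Of the 7 genes, 5 reached a mean FPKM of 0.5, the filter on low values, and 4 of the 5 were past the limma threshold of an adjusted p below 0.05, all lower in KO. The same threshold called 28.0% of all 11689 genes tested, 12.4% as lower and 15.7% as higher, and the KO libraries lay wholly below the WT libraries for 19.9% of genes and wholly above for 25.7%. Because the genes were chosen with this comparison known, their count is not read against these shares. The 4 called members were called as lower under each alternative run.

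Some facts hold for all libraries. Reads in genes numbered 11026529 to 15724897 per library. *Metrnl* had 63.2 to 93.5 FPKM in WT against 51.2 to 63.6 FPKM in KO, so its RNA gives no check of the labels, and KO stands for the libraries labelled KO. Pairs of the same group that included replicate 1 differed by 39.6 to 59.4 times sampling noise (chi-square over its degrees of freedom), against 7.10 for WT replicates 2 and 3 and 2.30 for KO replicates 2 and 3. Rescaling to equal totals (TPM) moved the calls over all genes from 1833 higher and 1445 lower to 542 higher and 1161 lower. The median log2 difference of tested genes was 0.03, or -0.04 in TPM.

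B cell genes were lower in the same libraries as the 4 called members. Of 22 B cell markers, 19 were tested, 16 fell and 0 rose (limma; also 0 higher at an unadjusted p below 0.05 and by voom), with a median log2 difference of -2.23 beside 0.03 over all tested genes. The B cell receptor component gene *Cd79b* fell 21.7-fold, the coactivator gene *Pou2af1* 18.1-fold and *Ly6d*, a surface marker of B lineage cells, 34.1-fold (limma adjusted p = 6.89e-06, 6.58e-05 and 6.70e-05). *Blnk*, *Btk* and *Cd37*, chosen after their values were seen and also expressed by macrophages, were the 3 that were not called. Summed over the list, the level was 467 to 568 FPKM in the WT libraries and 82.8 to 86.7 FPKM in the KO libraries. Different genes weigh most in these sums: *Ighm* in WT (271 ± 31.5 FPKM) and the uncalled *Cd37* in KO (44.9 ± 0.170 FPKM). In bulk RNA, fewer cells of a type and less RNA per cell cannot be told apart, and the part of B cells in the values of the 7 genes was not tested.

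As a percentage of its WT mean, the median B cell marker stood at 87.4%, 106% and 106% in WT replicates 1 to 3 while the KO libraries gave 7.21%, 6.50% and 5.27%. *Tnfrsf13c* stood at 66.7%, 138% and 95.4% in WT but only 3.20%, 3.33% and 3.31% in KO. *Cxcl13* stood at 2.24%, 3.81% and 2.61% of its WT mean in the KO libraries, each below the median marker. *Cxcr5* stood at 4.57%, 3.49% and 5.28%, below the median marker in KO replicates 1 and 2 and level with it in replicate 3. *Tnfrsf13b* stood at 21.8%, 23.3% and 22.5%, above it. WT replicate 1 was the lowest WT library for *Cxcl13*, *Cxcr5*, *Tnfrsf13b* and *Tnfrsf13c* and for the median B cell marker.

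**Figure D2:**
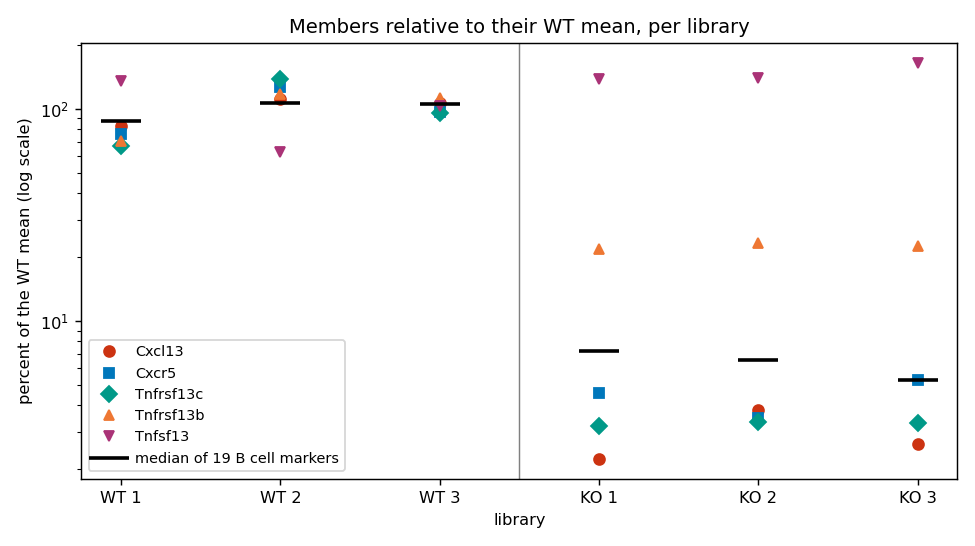
Level of 5 members in each library as a percentage of the gene's WT mean, on a log axis, with a black bar for the median over 19 B cell markers. In the KO libraries *Cxcl13* and *Tnfrsf13c* lie below the marker median (5.27% to 7.21%), *Cxcr5* lies below it in 2 and level with it in replicate 3, *Tnfrsf13b* at 21.8% to 23.3% lies above it, and *Tnfsf13* lies above its WT mean.

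The size of these offsets depended on how the markers were summarised and on which were taken. With each gene and marker first divided by its own WT mean, as in these percentages, the log2 offset from the median of the 19 markers (KO minus WT) was -1.16 for *Cxcl13*, -0.88 for *Tnfrsf13c*, -0.50 for *Cxcr5* and 1.87 for *Tnfrsf13b*. With *Ms4a1*, *Cd79a*, *Cd79b* and *Pax5* alone the same measure gave -0.85, -0.58, -0.19 and 2.17. Both were chosen after the data were seen. Against the median log2 FPKM of the 18 markers with reads in every library, a median of levels over unlike genes, the differences were -2.25, -1.98, -1.59 and 0.78. Of the 4, *Tnfrsf13b* alone was higher in KO relative to the marker median under all 3. It did not stand apart from every marker. In KO, *Tnfrsf13b* kept 0.225 of its WT mean, beside 0.557 for *Cd22*, 0.329 for *Cd5* and 0.215 for *Cd72*. The other called markers kept less. Relative to the 4 markers, the log2 offset of *Cxcr5* was -0.18, 0.23 and -0.12 in the WT libraries against -0.30, -0.59 and 0.23 in the KO libraries, with overlap. That of *Tnfrsf13c* was -0.37, 0.35 and -0.14 in the WT libraries against -0.81, -0.66 and -0.44 in the KO libraries, so that WT replicate 1 and KO replicate 3 nearly met.

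The 8 genes most like *Cxcl13* over the 6 libraries, of 7125 genes whose mean reached 2 FPKM and whose symbol is not that of a predicted gene (Gm or Rik), itself included, were taken by the root mean square difference of the log2 ratio to the WT mean. They were the light chain genes *Iglc2*, *Iglc3* and *Igkv8-24*, the heavy chain genes *Ighm* and *Ighj4*, *Ly6d*, *Mzb1*, which encodes an endoplasmic reticulum protein of B and plasma cells, and *Tnfrsf13c*. The differences ran from 0.26 for *Iglc2* to 0.48 for *Ighj4*, with 0.38 for *Tnfrsf13c*. *Iglc2* went from 40.9 ± 5.62 to 1.10 ± 0.582 FPKM and *Mzb1* from 23.8 ± 1.33 to 0.811 ± 0.0642 FPKM (SD, n = 3 each). *Cxcr5* was 14th in this order, at 0.63, and *Tnfrsf13b* 126th, at 2.11. The likeness is over 6 libraries that fall into 2 groups and is a description.

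Receptors that guide lymphocytes were among the other genes of lymphoid attraction that were lower in KO. In a list of 23 genes of lymphoid chemokines, oxysterol guidance and lymphotoxin, 14 were tested, 7 fell and 2 rose, with a median log2 difference of -0.85. Over all tested genes, 12.4% were called lower and 15.7% higher. Here and in the lists below, counts near these shares are not read as results about a list, and the lists were chosen with earlier results known. The CCL20 receptor gene *Ccr6* fell 15.6-fold, from 4.53 ± 0.981 to 0.291 ± 0.0851 FPKM (limma adjusted p = 4.06e-04, SD, n = 3 each). *S1pr1*, which directs exit into blood and lymph, fell 4.85-fold and *Ccr7*, the receptor for CCL19 and CCL21, fell 4.38-fold (limma adjusted p = 2.03e-04 and 9.46e-04). *Gpr183*, the receptor for oxysterols, fell 3.76-fold and *Cxcr4*, the CXCL12 receptor, 2.42-fold (limma adjusted p = 0.00569 and 0.00749). *Ltb*, which encodes the membrane lymphotoxin that induces *Cxcl13* in lymphoid stroma, fell 2.77-fold, from 5.48 ± 0.947 to 1.98 ± 0.566 FPKM (limma adjusted p = 0.00548, SD, n = 3 each). Its receptor gene *Ltbr* rose 1.41-fold, from 22.5 ± 0.964 to 31.7 ± 0.953 FPKM, and *Il7r* rose 1.60-fold (limma adjusted p = 0.0036 and 0.00991), though neither passed in TPM. The chemokine ligands named here had almost no reads: *Ccl19* and *Ccl21a* had 0 in all libraries, *Ccl20* had 0 in WT and 3 in KO, and *Cxcl12* had 5 in WT and 6 in KO.

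**Figure D3:**
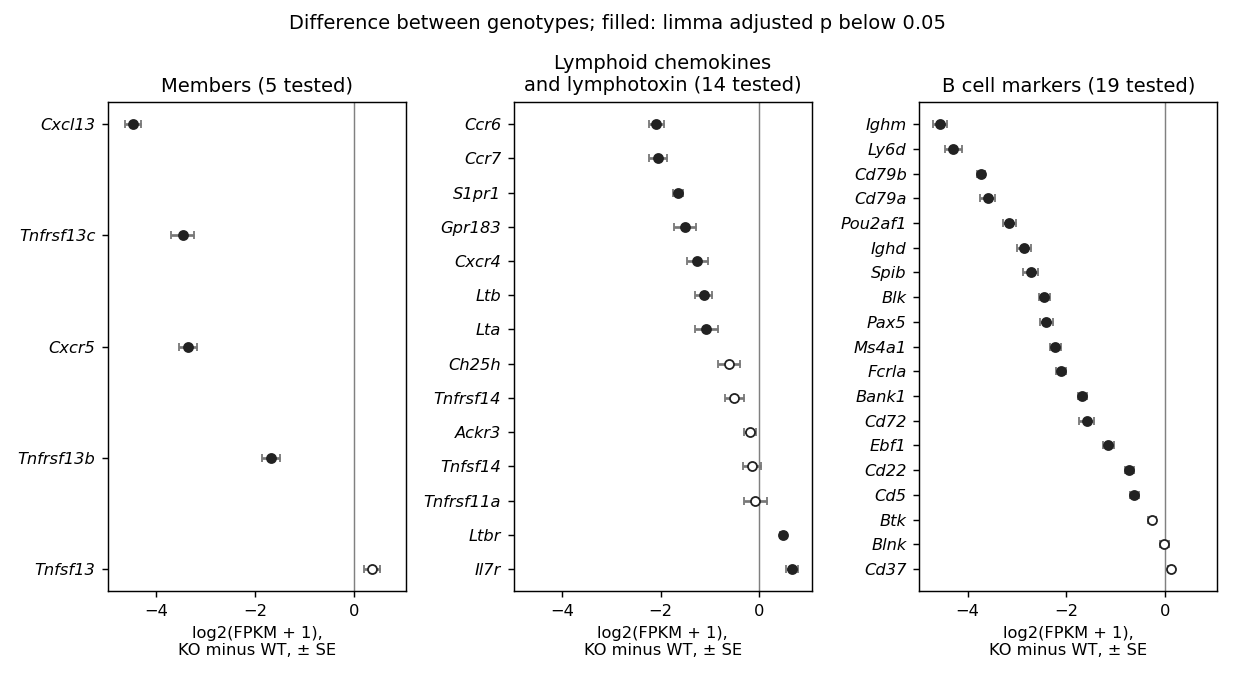
KO minus WT difference in log2(FPKM + 1) with its SE for the 5 tested members, 14 genes of lymphoid chemokines and lymphotoxin and 19 B cell markers. Filled points passed the limma threshold of an adjusted p below 0.05. *Cxcl13* at -4.47 lies beside the lowest B cell genes, and *Ltbr* and *Il7r* are the 2 filled points above 0.

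Genes that process BAFF and APRIL or carry their signals moved in both directions. Of 24, 23 were tested, 5 rose and 3 fell, with a median log2 difference of 0.07 beside 0.03 over all tested genes. The limma threshold called 15.7% of all tested genes as higher and 12.4% as lower. The counts are therefore not read as a result about this list. The TRAF adaptor gene *Traf5* rose 1.75-fold, from 10.2 ± 0.733 to 17.8 ± 0.532 FPKM, and *Adam17*, a protease that sheds TNF family ligands and receptors, rose 1.43-fold (limma adjusted p = 0.00119 and 0.00452, SD, n = 3 each). The APRIL-binding proteoglycan gene *Sdc1* rose 1.45-fold, *Chuk*, which encodes the IKKα kinase, 1.35-fold and *Syk* 1.32-fold, and these 3 did not pass in TPM. *Birc2*, which encodes the ubiquitin ligase cIAP1, fell 3.01-fold, from 6.20 ± 1.49 to 2.06 ± 0.174 FPKM, *Pik3cd* fell 2.17-fold and *Map3k14*, the NIK gene, fell 1.61-fold (limma adjusted p = 0.00287, 0.00911 and 0.00681, SD, n = 3 each). Without both replicate 1 libraries 8 of the list were lower. The proprotein convertase gene *Furin* did not pass, at 211 ± 10.4 and 270 ± 39.3 FPKM (limma adjusted p = 0.0741, SD, n = 3 each), and is named outside the rule. So are *Nfkb2* (215 ± 56.8 and 243 ± 117 FPKM) and *Relb* (27.5 ± 1.68 and 26.6 ± 3.39 FPKM), which encode the non-canonical NF-kB subunits and did not pass either. *Nfkb2* was at 150, 249 and 246 FPKM in WT replicates 1 to 3 but at 378, 177 and 173 FPKM in KO replicates 1 to 3.

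In a list of 12 related TNF family genes, 9 were tested, 0 rose (limma; 3 higher at an unadjusted p below 0.05 and 0 by voom) and 1 fell, the OX40 ligand gene *Tnfsf4*, from 1.31 ± 0.0657 to 0.205 ± 0.107 FPKM (limma adjusted p = 0.00187, SD, n = 3 each). The median log2 difference of the list was 0.23. Without both replicate 1 libraries, 4 were lower and 1 was higher, and without KO replicate 1 alone 2 were lower. For scale, and named outside the rule, *Tnf* stood at 8302 ± 2400 FPKM in WT and *Tnfsf9* at 84.0 ± 36.4 FPKM, while the BAFF gene was at or below 0.0465 FPKM in each library. *Tnfsf12*, the neighbour of the APRIL gene, had 15.1 ± 4.42 FPKM in WT against 21.5 ± 6.41 FPKM in KO and did not pass (limma adjusted p = 0.251, SD, n = 3 each).

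Of 12 other cytokine and cytokine receptor genes, listed for support of B cells by macrophages and all tested, 2 fell and 1 rose. The median log2 difference was -0.32. *Il5ra*, the receptor chain by which B-1 cells and eosinophils sense IL-5, fell 32.5-fold, from 2.58 ± 0.404 to 0.0794 ± 0.0389 FPKM, the latter from 12 reads over 3 libraries (limma adjusted p = 2.63e-04, SD, n = 3 each). *Il6st* fell 1.30-fold and *Tgfb1* rose 1.30-fold (limma adjusted p = 0.0254 and 0.0151). *Il6st* did not pass without WT replicate 2 or 3 or KO replicate 2 or 3, and *Tgfb1* did not pass without WT replicate 3 or KO replicate 2 or 3. Neither passed in TPM. Without both replicate 1 libraries 7 of the 12 were lower.

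Markers of the cells that could make or carry these products were counted in the same libraries. Their counts stand beside 12.4% called lower and 15.7% called higher over all tested genes. Core macrophage markers were abundant, summing to 5162 to 6005 FPKM in WT and 9129 to 9825 FPKM in KO, and 8 of 15 rose and 1 fell. *Lyz2* (2204 ± 397 and 4431 ± 203 FPKM) and *Cd14* (1800 ± 278 and 2674 ± 545 FPKM, not called) weigh most in these sums. The sums therefore do not give the change of a typical marker. Of 13 tested genes of large peritoneal macrophages, which are known to make CXCL13, 3 rose and 4 fell. *Gata6*, their defining factor, had 3.27 ± 0.347 FPKM in WT against 4.06 ± 1.45 FPKM in KO and did not pass (limma adjusted p = 0.462, SD, n = 3 each), while *Timd4* fell from 4.71 ± 1.26 to 0.570 ± 0.142 FPKM (limma adjusted p = 9.58e-04), both named outside the rule. Of 9 genes of small peritoneal and monocyte-derived macrophages 3 rose and 2 fell, but 0 fell without WT replicate 2, WT replicate 3, KO replicate 2 or KO replicate 3, and 1 without KO replicate 1.

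Among other sources of these products, stromal markers fell in 6 of 8 and rose in 0. *Clu* fell from 5.41 ± 0.431 to 2.21 ± 0.284 FPKM (limma adjusted p = 0.00114, SD, n = 3 each). *Pdpn*, by far the most abundant of the list, did not pass, at 383 ± 51.4 and 392 ± 55.3 FPKM (limma adjusted p = 0.881). The next most abundant, *Sparc*, went from 6.51 ± 0.433 to 2.41 ± 0.279 FPKM, so the level of *Pdpn* is not read as that of stroma. *Pdgfrb*, below the filter and named outside the rule, had 31 reads in WT and 103 in KO. The follicle marker *Madcam1* had 0 reads in WT and 2 in KO. Mesothelial markers summed to 3.91 to 4.83 FPKM in WT and 1.96 to 2.55 FPKM in KO, with 0 of 3 called (limma; 1 lower at an unadjusted p below 0.05 and 0 by voom). Plasma cell markers fell in 3 of 7, and in 1 of 7 without WT replicate 3, KO replicate 2 or KO replicate 3. T and NK cell markers fell in 7 of 8, from a summed 18.3 to 21.8 FPKM in WT to 5.04 to 6.76 FPKM in KO. Dendritic cell markers fell in 7 of 10 and neutrophil markers in 2 of 11, the latter in 1 without WT replicate 3, KO replicate 2 or KO replicate 3. Interferon-stimulated genes, a class to which BAFF belongs in myeloid cells, fell in 15 of 19, and in 16 by voom. Leaving out 1 library gave from 4 to 19 lower. The count was 6 without WT replicate 2, and 4 without WT replicate 3, KO replicate 2 or KO replicate 3. Retinal markers, counted because the labels' extraction text speaks of retinas, summed to at most 1.44 FPKM in any library. The part of each of these cell types in the values of the 7 genes was not tested.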

How the data were processed

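The authors deposited FPKM values per Ensembl gene with gene lengths and coordinates. The submitters' processing notes name the builds GRCm38 and mm10. Aligner, counter, annotation release and strand setting: not given in the sources used here. Each FPKM times its gene length came out as whole steps within a library (100% of values, tolerance 0.05 of a step), and the number of steps was taken as reads. Members and gene lists were chosen with earlier results of these data known.

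Tests used limma 3.58.1 in R 4.3.3 on log2(FPKM + 1) of the 11689 genes whose mean reached 0.5 FPKM, with genotype alone, an intensity trend and Benjamini-Hochberg adjustment over all tested genes. Where a symbol had several rows, the row with the highest mean was used. The script was tested on simulated data. The rule named, from each pathway list and the B cell list, up to 6 called genes with the smallest p in each direction, and, from other cell type lists, up to 3 with the highest mean and those at 0. Some of these are reported. The rule also asked for the genes most like *Tnfsf13b*, which were not taken because that gene had too few reads. A further B cell marker is not reported here and was left out of the list. Replicate numbers did not pair the libraries. Alternatives were another pseudocount, other filters, TPM, quantile normalization, a replicate block, each library left out, and, added after the data were seen, voom on the recovered reads.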

Additional observations from a re-analysis of the deposited data

How the results depend on the processing

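The 4 members called lower were called under every alternative run, and *Tnfsf13* was not called under any. The log2 difference ranged from -5.09 to -4.36 for *Cxcl13*, -4.46 to -3.17 for *Cxcr5*, -4.80 to -3.21 for *Tnfrsf13c*, -2.08 to -1.55 for *Tnfrsf13b* and 0.20 to 0.58 for *Tnfsf13*. Few reads in KO limit the low ends, and *Tnfsf13b* and *Tnfrsf17* were at or near 0.

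Over all genes, the calls were 542 higher in TPM, 876 lower where the mean had to reach 2 FPKM, and 479 higher and 604 lower with the replicate block. Leaving out 1 library gave 912 to 1681 higher and 851 to 1337 lower. The lymphoid chemokine list had 0 higher in TPM, 1 with quantile normalization, and 1 higher and 4 lower with the replicate block. The BAFF and APRIL list had 2 higher in TPM, 2 higher and 1 lower with the replicate block, and 8 lower without both replicate 1 libraries. The related TNF list had 2 lower with no filter, 0 where the mean had to reach 2 FPKM, and 4 lower and 1 higher without both replicate 1 libraries, with 1 to 2 lower when 1 library was left out. The cytokine list had 0 higher in TPM, with quantile normalization and with the replicate block. It had 1 lower with no filter, 1 where the mean had to reach 2 FPKM, 1 with the block, and 7 without both replicate 1 libraries, with 0 to 1 higher and 1 to 3 lower when 1 library was left out. The cause was not tested. The planned count models on recovered reads were not run, since the deposited unit is FPKM, and voom, chosen after seeing the data, took their place. The replicate block rests on the number alone: deviations of same-numbered libraries had correlations of -0.50, -0.19 and -0.16.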
